A study of Mus musculus with 24 samples.

Results

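The endothelial identity genes described here are 10 named genes, Pecam1, Cdh5, Emcn, Cldn5, Erg, Plvap, Esam, Vwf, Tie1 and Egfl7, of 46318 gene IDs counted in mouse mammary tumours. They were chosen by name as genes that mark the cells lining blood vessels, with earlier results of these data already known. All 10 passed the expression filter, and the lowest count of any of them in any library was 26 reads. Expression was measured by bulk RNA sequencing of whole frozen tumours, so fewer endothelial cells and less RNA per endothelial cell cannot be told apart.

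The tumours labelled KO came from NR0B2-/- PyMT+ mice (12 libraries, KO 1 to KO 12), and the tumours labelled WT came from NR0B2+/+ PyMT+ mice (12 libraries, WT 13 to WT 24). Both groups carry the MMTV-PyMT transgene, in which a mammary tumour virus promoter drives the polyoma middle T oncogene in mammary epithelium, so endothelium is not the compartment in which the oncogene is driven. Nr0b2, also called SHP, encodes an orphan nuclear receptor, and the labels give no tissue restriction of its loss. Tumours were taken at a volume of 2000 mm3, and the labels do not say that each comes from its own mouse. The p-values therefore measure only the spread among these samples, which may in part be technical.

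Totals ran from 18789250 to 38022182 counted reads per library. The targeted gene went against the labels: 12 of 12 libraries labelled KO held Nr0b2 reads, 182 in all, against 1 read in those labelled WT, where 11 libraries held none. Directions below are therefore those of the labels, and no loss of Nr0b2 was seen in the libraries labelled KO. Of 15820 genes tested, 50 were called at an adjusted p under 0.05 (0.316%; edgeR's quasi-likelihood test, Benjamini-Hochberg adjustment), 28 of them up and 22 down in tumours labelled KO. The following libraries stood apart. KO 12 tended to have genes of short exon length high and those of long exon length low. KO 11 was high in fat, muscle and leukocyte genes, and WT 17 was high in Vwf. Values without these libraries stand beside the results that moved most.

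Endothelial cells form the inner lining of blood vessels, hold to one another through specialised junctions, and control what passes between blood and tissue. A growing tumour recruits vessels from the surrounding tissue, and these are often uneven in calibre, coverage and leakiness. The genes considered here cover the main features of the cell type: Cdh5 (VE-cadherin), Pecam1 (CD31), Cldn5 (claudin-5) and Esam are proteins of endothelial junctions, Tie1 is a receptor tyrosine kinase of the angiopoietin system, and Erg is an ETS-family transcription factor that maintains endothelial identity. Emcn (endomucin) is a sialomucin of the luminal surface and Plvap forms the diaphragms of fenestrae and caveolae. Vwf is the multimeric clotting protein stored in Weibel-Palade bodies, and Egfl7 is a secreted matrix-associated protein whose gene hosts the endothelial microRNA miR-126.

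The stretches of 250 bases before the start sites of Tie1, Egfl7, Emcn and Cldn5 are shown as examples. By Pearson's r, Tie1, Egfl7 and Emcn followed Cdh5 across tumours in both groups. The relation of Cldn5 with Cdh5 did not pass its test in either group (values and limits below). Capitals mark GGAA, the core letters bound by ETS factors such as Erg, on the strand shown, and TTCC, the same core on the other strand. Sequences are from RefSeq, build GRCm38.p6, 5′ to 3′ along the gene's strand. They cover Tie1 at chr4:118489850-118490099 (minus strand), the first listed start site of Egfl7 at chr2:26580833-26581082 (plus), Emcn at chr3:137340828-137341077 (plus) and Cldn5 at chr16:18776597-18776846 (plus).
Tie1: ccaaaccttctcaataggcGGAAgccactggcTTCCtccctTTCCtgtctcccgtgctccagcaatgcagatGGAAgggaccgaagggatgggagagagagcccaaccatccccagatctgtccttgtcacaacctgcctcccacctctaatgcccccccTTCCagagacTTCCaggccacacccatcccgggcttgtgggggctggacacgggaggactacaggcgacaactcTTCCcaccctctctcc
Egfl7: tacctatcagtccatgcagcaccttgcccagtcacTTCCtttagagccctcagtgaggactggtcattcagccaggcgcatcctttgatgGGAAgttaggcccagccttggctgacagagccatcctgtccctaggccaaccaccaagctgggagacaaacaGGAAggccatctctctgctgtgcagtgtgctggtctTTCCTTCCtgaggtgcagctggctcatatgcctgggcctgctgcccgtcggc
Emcn: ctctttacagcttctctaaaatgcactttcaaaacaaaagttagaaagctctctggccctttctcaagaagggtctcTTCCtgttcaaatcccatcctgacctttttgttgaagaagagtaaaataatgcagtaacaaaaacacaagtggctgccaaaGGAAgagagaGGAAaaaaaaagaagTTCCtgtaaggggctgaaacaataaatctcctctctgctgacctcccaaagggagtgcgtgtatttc
Cldn5: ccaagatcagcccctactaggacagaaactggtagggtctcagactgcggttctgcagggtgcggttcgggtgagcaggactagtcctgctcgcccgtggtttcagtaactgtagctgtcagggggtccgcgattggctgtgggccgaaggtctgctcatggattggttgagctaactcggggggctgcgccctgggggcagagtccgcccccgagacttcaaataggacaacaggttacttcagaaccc
The core occurred 7 times before Tie1, 5 times before Egfl7, 4 times before Emcn and 0 times before Cldn5, counting both strands. Among 32851 windows of the same length in the promoter table, 93.4% held at least 1 such core, with a median of 3. The longer motif AGGAAG, which contains the core and was also searched on both strands, stood in 29.5% of windows and occurred 1 time before Tie1, 3 times before Egfl7, 2 times before Emcn and 0 times before Cldn5. Promoters were found for 5 of the 10 genes, with 9 start sites. The other start sites of Egfl7 held 3 and 1 cores. The start sites of Erg itself, which also followed Cdh5 in both groups and is not shown, held 0, 4 and 2. Any relation between the number of cores and following Cdh5 was not tested. These matches are letters in a window and do not show binding.

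The microRNA within Egfl7 is shown because its hairpin lies within this endothelial gene. In its mature form, from RefSeq with build GRCm38.p6, capitals mark the seed, bases 2 to 8.
miR-126a-3p: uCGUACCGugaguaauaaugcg
Its gene ID lies inside Egfl7 in the count annotation and held 7 reads in 3 of the libraries. Libraries made from polyadenylated RNA do not measure mature microRNAs, so no level is given for it.

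The order of the levels was set by comparing CPM (reads of a gene as a share of the library's total, TMM-scaled) divided by exon length in kilobases, since longer transcripts give more reads. Over all 24 libraries, Plvap was highest at 11.9 ± 3.30 CPM per kilobase (SD), followed by Pecam1 at 8.46 ± 2.92, Egfl7 at 6.94 ± 2.38, Cdh5 at 5.69 ± 2.08, Emcn at 5.55 ± 1.83 and Esam at 4.54 ± 1.399. Lower levels per kilobase were found for Tie1, at 2.51 ± 0.83, Cldn5, at 2.41 ± 1.68, and Vwf, at 1.96 ± 1.24. The transcription factor Erg was lowest at 0.95 ± 0.35 CPM per kilobase. Of the 9 neighbouring steps in this order, those from Plvap to Pecam1 and from Esam to Tie1 exceeded the larger of both SDs, and each held in 24 of 24 libraries. The other steps did not exceed the larger SD, a rule that ignores that both genes are measured in the same library. Within libraries, Vwf was above Erg in 24 of 24, Emcn above Esam in 22 and Pecam1 above Egfl7 in 19. Tie1 was above Cldn5 in 17, Egfl7 above Cdh5 in 16, and Cdh5 above Emcn and Cldn5 above Vwf in 14 each.

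**Figure D1:**
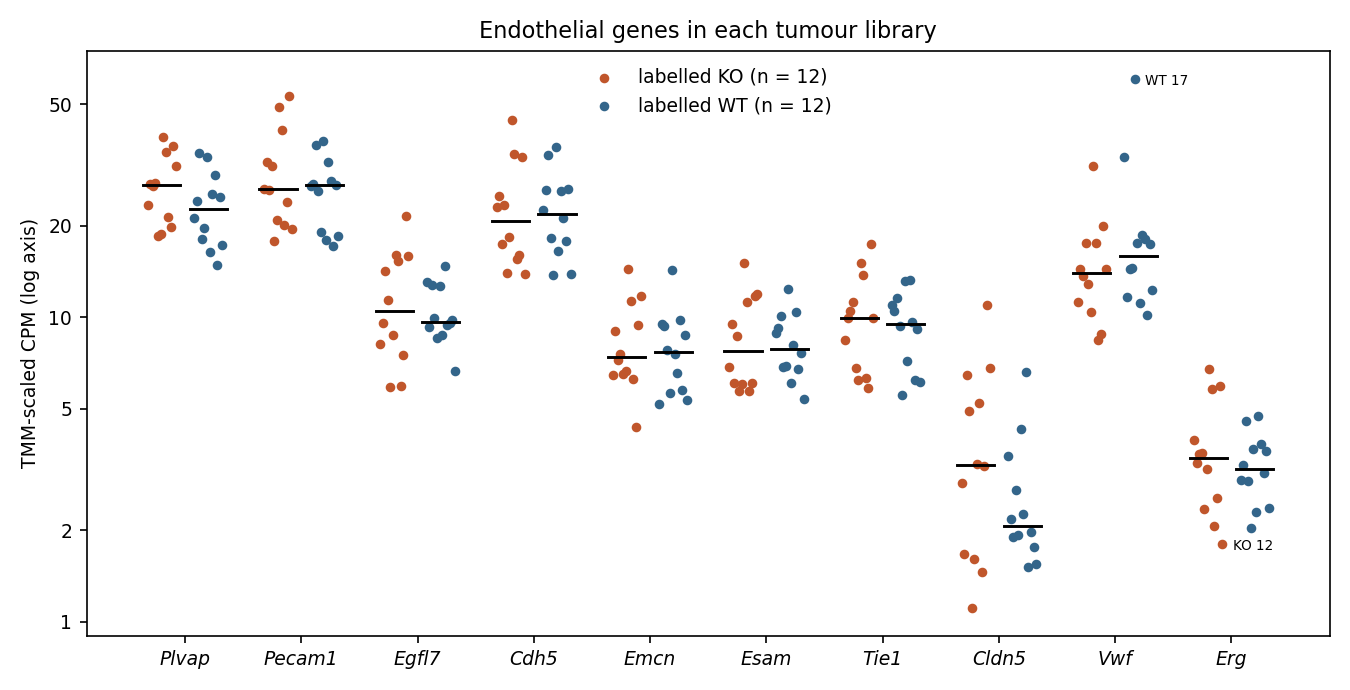
Level of each endothelial gene in every library, in TMM-scaled CPM on a log axis, with libraries labelled KO in orange and labelled WT in blue (12 each). Points are libraries and bars are medians. The groups overlap for all 10 genes, Vwf in WT 17 lies at 60.8 CPM, and Erg in KO 12 is the lowest of its group at 1.80 CPM.

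The comparison of the design asks how tumours of the Nr0b2 knockout differ from wild-type tumours. None of the 10 endothelial genes passed the test, in either direction, beside 0.316% of all tested genes. In edgeR 0 of 10 also had an unadjusted p under 0.05, against 18.9% of all tested genes. DESeq2 called 0 of 10 (2.64% of all genes) and limma voom 0 of 10 (0.436%), and neither gave one of the 10 an unadjusted p under 0.05. Adjusted p-values in edgeR ran from 0.318 to 0.943. The log2 change was positive for 9 genes and negative for Vwf, with a median of 0.14, while 51.3% of all tested genes were positive, with a median of 0.01. The size of this tilt varied with single libraries. When 1 library was left out, the median over the 10 genes ran from 0.06 (without KO 11) to 0.19 (without WT 18). Without KO 7 it was also 0.06, with 4 genes negative, and without KO 11 and KO 12 together it was 0.01. With limma voom over all 24 libraries the median was 0.03, with 3 genes negative. The authors' deposited table holds the same comparison for all 10 genes, with log2 changes from -0.41 for Vwf to 0.62 for Cldn5 and adjusted p-values from 0.321 to 0.945.

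Among the junction genes, Pecam1 (chromosome 11, 106545039 to 106606107, minus strand, GRCm39) mediates adhesion at cell borders. It ran from 17.9 through a median of 26.3 to 53.4 CPM in the libraries labelled KO, and from 17.1 through a median of 27.1 to 38.0 CPM in those labelled WT. The WT range lay almost wholly inside the KO range, and KO 11 was highest. The log2 change was 0.20 ± 0.18 (SE; edgeR adjusted p = 0.563), and 5 of 12 libraries labelled KO lay above the WT median. It was 0.09 without KO 11 and 0.11 without KO 7.

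Cdh5 (chromosome 8, 104828247 to 104871136, plus strand) holds the adherens junction together and is used below as the yardstick for the others. Its level ran from 13.9 through 20.7 to 44.4 CPM in the libraries labelled KO, and from 13.8 through 21.8 to 36.1 CPM in those labelled WT. Medians and lowest values nearly coincided, and KO 7 was highest. The log2 change of 0.03 ± 0.20 (SE; edgeR adjusted p = 0.943) corresponds to a fold of 1.02, with an interval of 2 SE on either side from 0.77 to 1.35, and its sign turned in 6 of 24 fits that left out 1 library.

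Cldn5 (chromosome 16, 18595597 to 18597012, plus strand), the main claudin of endothelial tight junctions, had the widest spread within groups, as the pooled SD of log2 CPM, although Vwf spanned a wider range in WT libraries (5.99-fold, against 4.38-fold for Cldn5). It ran from 1.11 through 3.28 to 10.9 CPM in the libraries labelled KO, and from 1.51 through 2.07 to 6.63 CPM in those labelled WT. The lowest and the highest library were both labelled KO (KO 5 and KO 11), so that the WT range lay within the KO range. The log2 change was 0.62 ± 0.34 (SE; unadjusted p = 0.08, edgeR adjusted p = 0.318), and 8 of 12 libraries labelled KO lay above the WT median. It was 0.39 without KO 11, 0.24 without KO 11 and KO 12, 0.83 without WT 20, and 0.26 with limma voom. In 3 of 24 such fits, without KO 5, KO 9 or WT 20, the unadjusted p was under 0.05, and the smallest adjusted p was 0.208.

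Esam (chromosome 9, 37439385 to 37449615, plus strand), an immunoglobulin-family junction protein, ran from 5.71 through 7.77 to 15.1 CPM in the libraries labelled KO, and from 5.39 through 7.88 to 12.4 CPM in those labelled WT. The groups overlapped, and 6 of 12 libraries labelled KO lay above the WT median. Its log2 change was 0.08 ± 0.18 (SE; edgeR adjusted p = 0.82). It was -0.02 without KO 7, 0.15 without WT 18 and -0.03 with limma voom.

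The receptor gene Tie1 (chromosome 4, 118328388 to 118347046, minus strand) ran from 5.84 through 9.91 to 17.4 CPM in the libraries labelled KO, and from 5.54 through 9.47 to 13.2 CPM in those labelled WT. KO 11 was highest and the groups overlapped (log2 change 0.11 ± 0.19, SE; edgeR adjusted p = 0.773). The change was 0.01 without KO 11, 0.04 without KO 7 and 0.02 with limma voom. Tie1 is the 1 endothelial gene on the chromosome of Nr0b2, 14.9 Mb from it.

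Erg (chromosome 16, 95160028 to 95387452, minus strand), the transcription factor, ran from 1.80 through 3.45 to 6.74 CPM in the libraries labelled KO, and from 2.04 through 3.18 to 4.75 CPM in those labelled WT. The libraries labelled KO held both the lowest value, in KO 12, and the highest, in KO 7. The log2 change was 0.19 ± 0.21 (SE; edgeR adjusted p = 0.626), and 0.08 without KO 7 and 0.11 without KO 11.

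Of the surface genes, Emcn (chromosome 3, 137046824 to 137136830, plus strand) ran from 4.37 through 7.41 to 14.4 CPM in the libraries labelled KO, and from 5.17 through 7.69 to 14.3 CPM in those labelled WT. The highest values of both groups nearly coincided, and the log2 change was 0.08 ± 0.19 (SE; edgeR adjusted p = 0.843). It was -0.03 without KO 7, 0.19 without WT 18 and 0.01 with limma voom. Plvap (chromosome 8, 71950397 to 71964446, minus strand), the diaphragm protein of fenestrated vessels, ran from 18.5 through 27.1 to 39.1 CPM in the libraries labelled KO, and from 14.8 through 22.6 to 34.6 CPM in those labelled WT. The KO range lay slightly above the WT range at both ends, and 8 of 12 libraries labelled KO lay above the WT median. Its log2 change was 0.22 ± 0.15 (SE; edgeR adjusted p = 0.435), and 0.14 without KO 11 and KO 12.

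Of the secreted products, Egfl7 (chromosome 2, 26471095 to 26482694, plus strand) ran from 5.88 through 10.5 to 21.5 CPM in the libraries labelled KO, and from 6.67 through 9.67 to 14.7 CPM in those labelled WT. As for Tie1 and Pecam1, KO 11 was highest and the groups overlapped (log2 change 0.16 ± 0.19, SE; edgeR adjusted p = 0.657). The change was 0.05 without KO 11, -0.02 without KO 11 and KO 12, and -0.01 with limma voom.

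Vwf (chromosome 6, 125529911 to 125663642, plus strand) was the 1 gene with a negative change. It ran from 8.44 through 13.99 to 31.5 CPM in the libraries labelled KO, and from 10.2 through 15.9 to 60.8 CPM in those labelled WT. The 60.8 CPM of WT 17 was 4.199 times the median of the other WT libraries, which reached 33.5 CPM. The log2 change was -0.41 ± 0.27 (SE; unadjusted p = 0.141, edgeR adjusted p = 0.404). It was -0.12 without WT 17 and -0.57 without KO 7, where the unadjusted p was 0.0387 and the adjusted p 0.247.

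**Figure D2:**
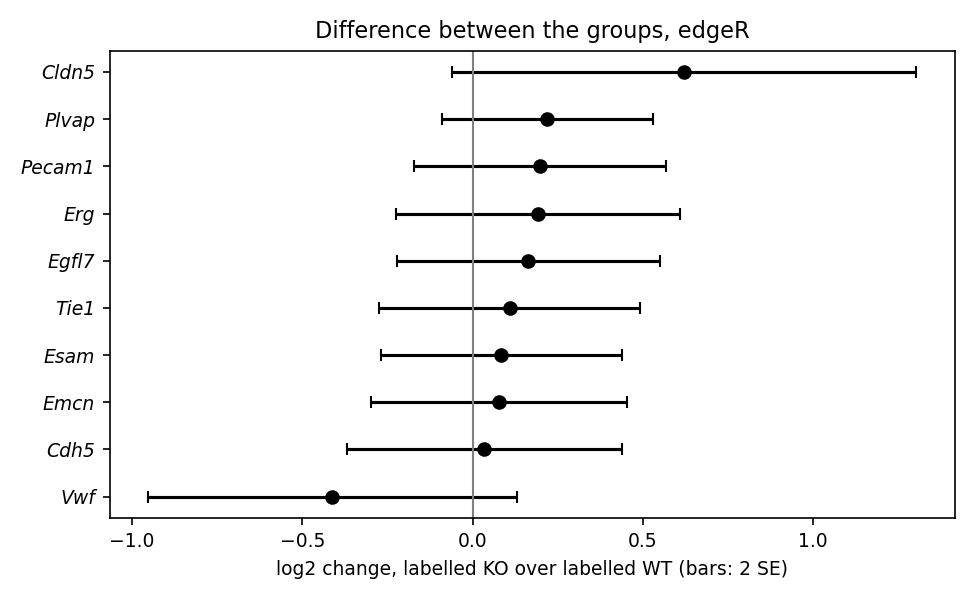
Log2 change of each gene, labelled KO over labelled WT, from edgeR's quasi-likelihood fit over 24 libraries. Points are estimates and bars run 2 SE to either side. Every bar crosses 0, with Cldn5 farthest to the right at 0.62 and Vwf farthest to the left at -0.41.

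Single tumours differed in the whole set by more than the groups did. Among the libraries labelled KO, KO 7 and KO 11 each ranked in the top 3 of their group for 9 of the 10 genes and KO 8 for 6, while KO 9 ranked in the bottom 3 for 9 and KO 5 for 7. Among the libraries labelled WT, WT 15 and WT 18 ranked in the top 3 for 7 genes each, WT 24 in the bottom 3 for 9 and WT 19 for 7. Averaged over the 10 genes, KO 11 had a mean deviation of 0.76 from the mean of its whole group on the log2 scale and KO 9 one of -0.62. In the libraries labelled WT, the mean deviation was 0.53 in WT 18 and -0.52 in WT 24.

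**Figure D3:**
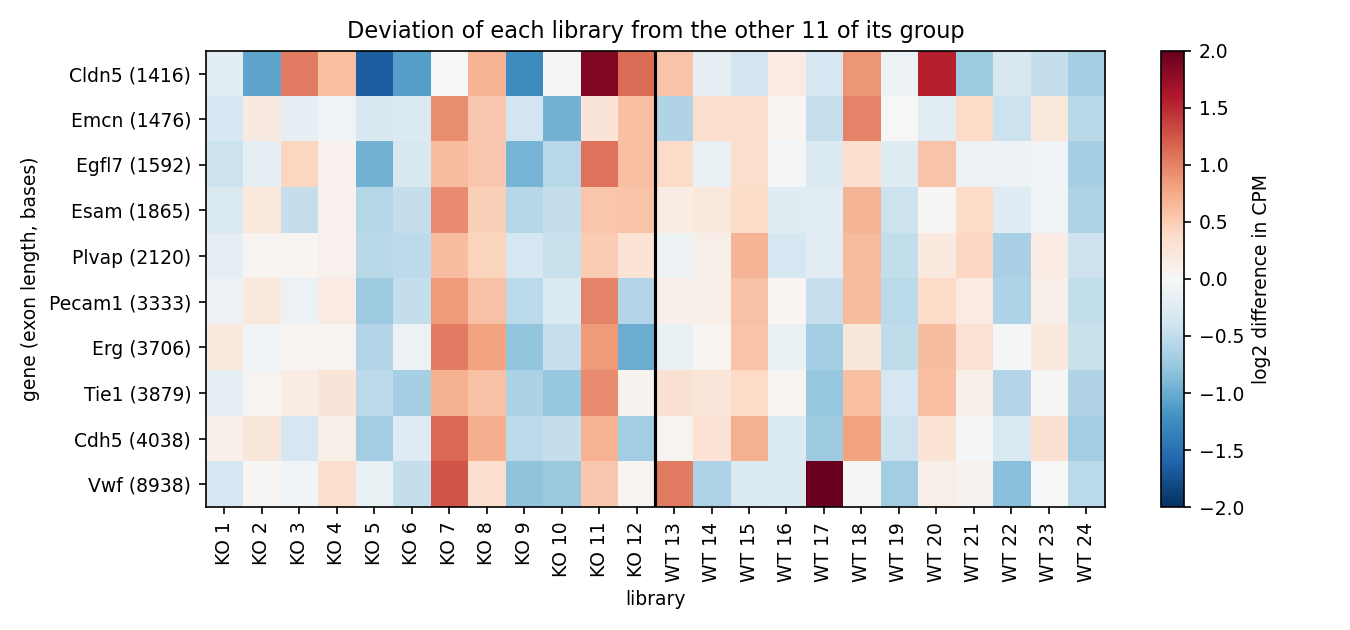
Log2 difference of each library from the mean of the other 11 libraries of its group, for the 10 genes ordered by exon length (bases, in parentheses). Red is higher and blue lower. KO 7, KO 8 and KO 11 are red over nearly all genes and KO 9 blue, KO 12 is red for the 5 shortest genes and blue for Pecam1, Erg and Cdh5, and WT 17 is deep red for Vwf alone.

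Pairs of the 10 genes mostly moved together. Over the 45 pairs, Pearson's r of log2 CPM had a median of 0.78 across the 12 libraries labelled KO (lowest 0.35, highest 0.95; 0 negative) and of 0.68 across the 12 labelled WT (lowest -0.28, highest 0.94; 4 negative, each with Vwf). Each of these values shares library and depth between the genes and is given as a description.

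Cdh5 was set against each of the other 9 genes within each group, which gave 18 relations, tested by permutation with 100000 resamples and adjusted together. In the libraries labelled KO 8 of 9 passed, and in those labelled WT 7 of 9. Pecam1 followed Cdh5 most closely, with r = 0.95 and rho = 0.95 in KO libraries (permutation p = 2e-05 and 1e-05; adjusted p for r = 0.00018) and r = 0.91 and rho = 0.85 in WT libraries (permutation p = 1e-04 and 0.00109; adjusted p for r = 6e-04). Without the 2 libraries farthest from the median of Cdh5 these r were 0.94 in KO libraries and 0.88 in WT libraries. Erg had r = 0.95 and rho = 0.92 in KO libraries (permutation p = 2e-05 and 5e-05; adjusted p for r = 0.00018) and r = 0.83 and rho = 0.79 in WT libraries (permutation p = 0.00069 and 0.00329; adjusted p for r = 0.00193). Without those libraries r was 0.91 in KO libraries and 0.84 in WT libraries. Tie1 had r = 0.80 and rho = 0.67 in KO libraries (permutation p = 0.00212 and 0.0201; adjusted p for r = 0.00424) and r = 0.88 and rho = 0.82 in WT libraries (permutation p = 0.00019 and 0.00173; adjusted p for r = 0.000855), and without those libraries r was 0.72 in KO libraries and 0.82 in WT libraries.

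The remaining relations that passed had r from 0.62, for Egfl7, to 0.79, for Vwf, in KO libraries, and from 0.73, for Emcn, to 0.85, for Esam and Plvap, in WT libraries. In KO libraries, 5 of these 8 relations, those of Emcn, Plvap, Esam, Vwf and Egfl7, had a permutation p above 0.05 without KO 7 and KO 8, and by rho 5 of 9 passed. With KO 12 kept, r without KO 7 and KO 8 was 0.28 for Emcn, 0.51 for Esam and Egfl7, 0.58 for Plvap and 0.60 for Vwf. Those r are over fewer libraries and a narrower range of Cdh5. Of the relations that passed in WT libraries, only that of Emcn had a permutation p above 0.05 without the farthest libraries (r = 0.54 without WT 17 and WT 18, permutation p = 0.109). By rho 7 of 9 passed in WT libraries. Without KO 12, a setting chosen after seeing the data, the 8 r in KO libraries ran from 0.81 to 0.97, and from 0.75 to 0.96 with the 2 farthest libraries also left out.

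Cldn5 did not pass with Cdh5 in either group, which at 12 libraries each does not show that it is unrelated to Cdh5. It had r = 0.35 and rho = 0.29 in KO libraries (permutation p = 0.257 and 0.355; adjusted p for r = 0.272; r = 0.40 without KO 7 and KO 8) and r = 0.41 and rho = 0.25 in WT libraries (permutation p = 0.182 and 0.433; adjusted p for r = 0.205; r = 0.23 without WT 17 and WT 18). In KO 7, which was highest for Cdh5, Cldn5 lay at the level of the rest of its group, and in KO 12, lowest for Cdh5, it lay 1.12 above the rest on the log2 scale. Without KO 12 the r of Cldn5 in KO libraries was 0.53 (adjusted p = 0.104, permutation test). Cldn5 had between 26 and 325 reads per library, against 216 to 1424 for Cdh5. Among the pairs of Cldn5, r was highest with Egfl7, at 0.87 in KO libraries and 0.77 in WT libraries. It was lowest with Cdh5 in KO libraries (0.35) and with Emcn in WT libraries (0.08).

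**Figure D4:**
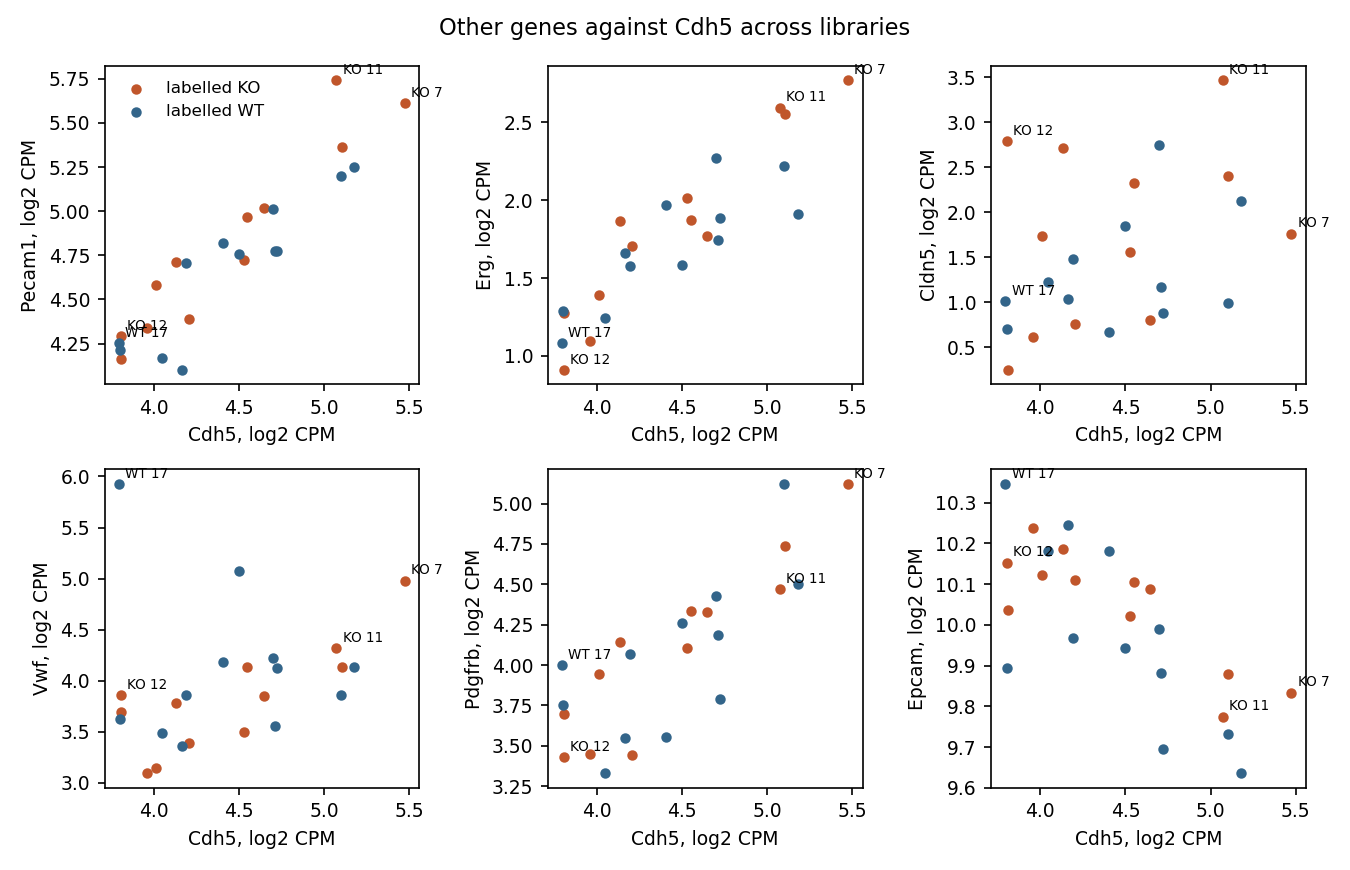
Pecam1, Erg, Cldn5, Vwf, Pdgfrb and Epcam against Cdh5, each in log2 CPM with a prior count of 2, in 12 libraries labelled KO (orange) and 12 labelled WT (blue). Points are libraries. Pecam1 and Erg follow Cdh5 in both groups (r of 0.83 or more), Cldn5 is scattered, WT 17 stands alone in Vwf, and Epcam slopes down.

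Vwf was the other gene whose relation with Cdh5 did not pass in WT libraries. In WT libraries it had r = -0.15 and rho = 0.08 with Cdh5 (permutation p = 0.647 and 0.801; adjusted p for r = 0.647), and r = 0.33 without WT 17 and WT 18. In KO libraries r was 0.79 and rho 0.66 (permutation p = 0.00168 and 0.0233; adjusted p for r = 0.00378), with 0.60 without KO 7 and KO 8. The difference between the groups was not tested. WT 17, which held 60.8 CPM of Vwf, was the lowest WT library for Cdh5 at 13.8 CPM, for Tie1 at 5.54 CPM and for Erg at 2.04 CPM, and held 18.996 CPM of Pecam1. Without WT 17 alone, r of Vwf with Cdh5 was 0.35 (permutation p = 0.3). Vwf is also made by megakaryocytes, and their genes Pf4 and Itga2b were at 3.29 and 5.22 CPM in WT 17, each below the median of the other WT libraries, at 4.61 and 5.77 CPM. The endothelial transcription factor gene Sox17, singled out after its values were seen, was at 9.95 CPM in WT 17, against 0.45 to 2.07 CPM in the other WT libraries. The next highest Vwf among WT libraries, 33.5 CPM, was in WT 13, where the lymphatic regulator gene Prox1 was at 26.5 CPM, against 1.51 to 6.71 CPM in the rest of the group. The part of megakaryocytes, Sox17 or Prox1 in the level of Vwf was not tested.

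In KO 12, the endothelial genes of short exon length lay above those of long exon length. The 5 genes with the shortest exon length, Cldn5 (1416 bases), Emcn (1476), Egfl7 (1592), Esam (1865) and Plvap (2120), lay 0.28 to 1.12 above the rest of the group in KO 12 on the log2 scale, with a mean of 0.63. The 5 longest, Pecam1 (3333), Erg (3706), Tie1 (3879), Cdh5 (4038) and Vwf (8938), had a mean deviation of -0.43, with Erg at -0.99, Cdh5 at -0.69 and Pecam1 at -0.58, while Tie1 and Vwf were at 0.06 and 0.04. The gap between the short and the long genes was 1.07 in KO 12, and between -0.38 and 0.25 in the other 23 libraries. Over all 15820 tested genes, the deviation of KO 12 from its group had a Spearman correlation of -0.46 with exon length, a description across genes, against -0.16 to 0.24 in the other libraries. The hypoxia-responsive ligand gene Vegfa was at 326 CPM in KO 12, against 21.3 to 97.4 CPM in the other KO libraries. It was also at 326 CPM in WT 23, where the gap between short and long genes was -0.18. The part of length in the values of KO 12 was not tested.

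**Figure D5:**
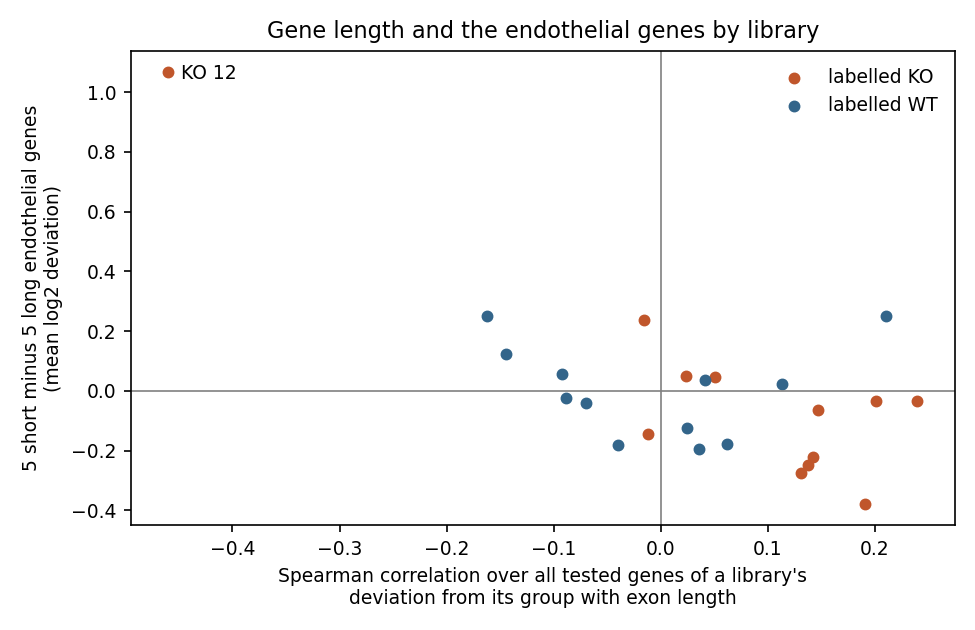
Mean log2 deviation of the 5 short minus the 5 long endothelial genes in each library, against the Spearman correlation over all 15820 tested genes of that library's deviation with exon length. Points are libraries labelled KO (orange) and labelled WT (blue). KO 12 stands alone at -0.46 and 1.07.

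The ratio of each gene to Cdh5 asks whether the makeup of the set differed between the groups when its total did not count. None of 9 ratios passed in a permutation test adjusted over the 9, and 1 had an unadjusted p under 0.05. The log2 ratio of Pecam1 to Cdh5 was 0.38 ± 0.17 in KO libraries and 0.23 ± 0.19 in WT libraries (SD, n = 12 each), a difference of 0.16 ± 0.07 (SE; permutation p = 0.0468, adjusted p = 0.356), and 10 of 12 KO libraries lay above the WT median. That of Plvap was 0.28 ± 0.36 in KO libraries and 0.05 ± 0.25 in WT libraries, a difference of 0.23 ± 0.13 (SE; permutation p = 0.0792, adjusted p = 0.356), with 11 of 12 KO libraries above the WT median. The other 7 differences ran from -0.29 for Vwf to 0.44 for Cldn5, with adjusted p of 0.489 or more. Without WT 17 the difference for Vwf was -0.07. That for Cldn5 was 0.29 without KO 12 and 0.17 without KO 11 and KO 12. That for Plvap was 0.15 without KO 12, and the unadjusted permutation p of Pecam1 was then 0.0691. Without WT 17, a setting chosen after seeing the data, the differences were 0.18 for Pecam1 and 0.27 for Plvap. Their permutation p were 0.0274 and 0.0333, with an adjusted p of 0.15 for both. Without KO 11 and KO 12 the difference for Pecam1 was 0.12 (permutation p = 0.133). All 9 ratios share Cdh5, so they are not independent. With Tie1 as the denominator the differences were 0.08 for Pecam1 and 0.15 for Plvap (permutation p = 0.382 and 0.152).

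Genes whose pattern was most like the endothelial set were ranked by r with the mean profile of the 10 genes across 24 libraries, after subtracting each group's mean, among 14296 other genes of at least 1 CPM. The median r of these genes was -0.03. Highest were Mmrn2 (0.92), a matrix glycoprotein of endothelium, the adhesion receptor gene Adgrl4 (0.88), the guidance receptor gene Robo4 (0.87), Fgd5 (0.87), a guanine nucleotide exchange factor, and Kdr (0.86), the main receptor for VEGF. Sox18 (0.85), Gpr4 (0.85), Eng (0.85), Myct1 (0.83) and Arhgef15 (0.82) followed. Of these 10, 7 stood on the lists of endothelial genes or transcription factors, and 6 were also among the 10 most alike without KO 12. None of the 10 was called between the groups. Kdr averaged 14.7 ± 6.61 CPM in KO libraries and 14.4 ± 4.46 CPM in WT libraries (SD, n = 12 each), with a log2 change of 0.03 ± 0.21 (SE; edgeR adjusted p = 0.946).

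Wider endothelial lists gave the same count in edgeR. Over all tested genes, 0.316% were called in edgeR and 18.9% had an unadjusted p under 0.05. Of 23 other endothelial genes 0 were called (1 at an unadjusted p under 0.05), with a median log2 change of 0.10, 14 positive and 9 negative. The sialomucin gene Podxl, which epithelial cells also express, had the smallest p of these, at 90.1 ± 21.99 CPM in KO libraries and 126 ± 66.999 CPM in WT libraries (SD, n = 12 each; log2 change -0.49 ± 0.20, SE; edgeR adjusted p = 0.202). Of 13 endothelial transcription factor genes 0 were called, 5 had an unadjusted p under 0.05 and the median log2 change was 0.41. The shear-responsive factor genes Klf4 and Klf2 had log2 changes of 0.73 ± 0.23 and 0.69 ± 0.24 (SE; edgeR adjusted p = 0.136 and 0.159), and Gata2, also a factor of blood progenitors and mast cells, had 2.02 ± 0.63 (adjusted p = 0.127 in edgeR).

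Lists of vessel types gave 0 calls each in edgeR. The counts at an unadjusted p under 0.05 stand beside 18.9% of all tested genes. For the arterial list, 7 of 8 genes were tested, with 0 at an unadjusted p under 0.05 and a median log2 change of -0.13. Of the venous list 6 of 7 were tested (1 at an unadjusted p under 0.05; median 0.31), and Ackr1, a defining gene of venules, was at 0 reads in all libraries. Of the capillary list 5 of 6 were tested (2 at an unadjusted p under 0.05; median 0.50), with the fatty acid transporter gene Cd36, which adipocytes and macrophages also express, at 1.20 ± 0.47 (SE; edgeR adjusted p = 0.194). In the tip cell list 7 of 8 log2 changes were negative, with a median of -0.33 and 3 genes at an unadjusted p under 0.05. Those were the basement membrane genes Nid2 (-0.74 ± 0.27, SE), Col4a1 (-0.91 ± 0.37) and Col4a2 (-0.85 ± 0.37), whose edgeR adjusted p were 0.168 to 0.223 and which other cells of a tumour also express. Of 7 lymphatic markers 1 had an unadjusted p under 0.05, Lyve1, and the median was -0.25.

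Markers of other cells were set beside the endothelial genes. Of 8 platelet and megakaryocyte markers 2 passed the filter, and Pf4, which encodes platelet factor 4, was the 1 gene called on any of the 16 lists. It averaged 10.999 ± 5.95 CPM in KO libraries and 4.64 ± 1.88 CPM in WT libraries (SD, n = 12 each), and rose by 1.24 ± 0.27 on the log2 scale (SE; edgeR adjusted p = 0.038). It was called in 9 of 24 fits that left out 1 library, with adjusted p up to 0.0794, and not without KO 11 (log2 change 1.11, adjusted p = 0.0695 in edgeR), nor with limma voom (0.84, adjusted p = 0.147). The call was also lost without KO 11 and KO 12 (0.96, edgeR adjusted p = 0.0911). It held with DESeq2 (adjusted p = 0.00118) and, in edgeR, with the other scalings and filters (adjusted p from 0.0388 to 0.0494). Itga2b, the platelet integrin gene, had a log2 change of -0.28 ± 0.30 (SE; edgeR adjusted p = 0.625). Whether the Pf4 reads come from platelets, megakaryocytes or other cells was not tested. The median log2 change was 0.01 for 10 pericyte and mural markers, 0.42 for 7 fibroblast markers, 1.23 for 6 adipocyte markers, 2.36 for 4 tested skeletal muscle markers, 0.10 for 6 epithelial markers, 0.26 for 6 leukocyte and macrophage markers and 1.12 for 4 erythroid markers. None of these was called in edgeR, while 3 of the muscle and 4 of the erythroid markers, 2 of the pericyte, 1 of the fibroblast and 1 of the epithelial markers had an unadjusted p under 0.05. The share over all tested genes was 18.9%.

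The summed level of the adipocyte list ran from 31.9 through a median of 180.5 to 1854 CPM in KO libraries, and from 4.34 through 98.9 to 523 CPM in WT libraries. That of skeletal muscle ran from 0.85 through 146 to 4242 CPM in KO libraries, and from 0.80 through 33.9 to 413 CPM in WT libraries. KO 11, highest for 4 of the endothelial genes, was also high in the fat gene Adipoq (270 CPM, against 3.02 to 100.5 in other KO libraries), the muscle gene Acta1 (1541 CPM, against 0.27 to 337) and the leukocyte gene Ptprc (156 CPM, against 13.3 to 95.5). KO 7, highest for the other 6, held 22.1 CPM of Adipoq and 48.2 CPM of Acta1, both below the median of the other KO libraries, and 34.7 CPM of the pericyte gene Pdgfrb, against 10.7 to 26.6 in the other KO libraries. The part of these tissues in the endothelial values was not tested.

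Cdh5 was also set against 1 gene of each of 8 other compartments within each group, 16 relations adjusted together, of which 7 passed. Pdgfrb, the receptor that marks pericytes and fibroblasts, followed Cdh5 with r = 0.91 and rho = 0.90 in KO libraries (permutation p = 5e-05 and 0.00016; adjusted p for r = 8e-04) and r = 0.70 and rho = 0.70 in WT libraries (permutation p = 0.0102 and 0.0145; adjusted p for r = 0.0326). Without the 2 libraries farthest from the median of Cdh5, r was 0.82 in KO libraries and 0.76 in WT libraries. The epithelial gene Epcam ran the other way, with r = -0.84 and rho = -0.75 in KO libraries (permutation p = 0.00103 and 0.00663; adjusted p for r = 0.00824) and r = -0.75 and rho = -0.78 in WT libraries (permutation p = 0.00577 and 0.00404; adjusted p for r = 0.0231). Without the 2 farthest libraries r was -0.72 in KO libraries and -0.57 in WT libraries, the second with a permutation p of 0.0837. With library totals in place of TMM, Epcam no longer passed in KO libraries (r = -0.48, rho = -0.25, adjusted p = 0.223, permutation test). Without WT 17 it did not pass in WT libraries (r = -0.68, adjusted p = 0.0581, permutation test).

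The collagen gene Col1a1 had r = 0.74 and rho = 0.83 in KO libraries (permutation p = 0.00548 and 0.00158; adjusted p for r = 0.0231; r = 0.61 without the 2 farthest libraries) and r = 0.68 and rho = 0.65 in WT libraries (permutation p = 0.0141 and 0.0257; adjusted p for r = 0.0375; r = 0.67 without them). Adipoq passed in KO libraries, with r = 0.66 and rho = 0.72 (permutation p = 0.0197 and 0.0107; adjusted p for r = 0.045; r = 0.83 without the 2 farthest), and had r = -0.01 in WT libraries (permutation p = 0.968). The call in KO libraries was lost without KO 12 (r = 0.59, adjusted p = 0.111, permutation test), without KO 11 and KO 12 (r = 0.51, adjusted p = 0.267, permutation test), and by adjustment alone without WT 17 (adjusted p = 0.0581, permutation test). That of Col1a1 was lost in KO libraries without KO 11 and KO 12 (adjusted p = 0.0562, permutation test) and in WT libraries without WT 17 (adjusted p = 0.0894, permutation test). The difference between the groups for Adipoq was not tested. For Vegfa, the ligand that drives vessel growth, r with Cdh5 was -0.31 and rho -0.24 in KO libraries (permutation p = 0.34 and 0.457; adjusted p for r = 0.495; r = -0.52 without the 2 farthest libraries) and r was 0.02 and rho -0.03 in WT libraries (permutation p = 0.961 and 0.939; adjusted p for r = 0.968; r = 0.03 without them). Acta1, Ptprc and Pf4 did not pass in either group, although Pf4 passed in KO libraries without KO 12 (r = 0.68, adjusted p = 0.0467, permutation test). CPM are shares of a library, so a gene that takes more of the reads lowers the others, and Epcam was between 876 and 1207 CPM in KO libraries and between 795 and 1301 CPM in WT libraries.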

How the data were processed

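The authors counted reads with featureCounts 2.0.0 on a GRCm39 annotation, per the file headers, and the files hold raw counts per gene. STAR and Subread are also named in the submitters' processing notes, without a version. The library kit keeps strand, per the labels' protocols, but the recorded command sets no strand option. None of the 10 genes shares exon positions with another annotated gene. The authors' deposited table lists log2 fold changes, mean log2 CPM, p-values and adjusted p-values, together with a signed fold score and an F score that were not used.

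Genes were kept by filterByExpr and scaled by TMM, and edgeR 4.0.16 in R 4.3.3 gave the two-sided quasi-likelihood test, with Benjamini-Hochberg adjustment over 15820 genes and a threshold of 0.05. The procedure was checked on simulated counts. Correlations and ratios used log2 CPM with a prior count of 2 and two-sided permutation tests of 100000 resamples. Other settings tried were upper-quartile and RLE scaling, DESeq2 1.42.0, voom with quality weights in limma 3.58.1, other filters, a prior count of 0.5, library totals without TMM, Tie1 as denominator, and leaving out libraries. The 10 genes and the 16 lists were chosen with earlier results of these data known. Named were all 10 genes, the 10 most alike, up to 4 genes of each list by smallest p, 8 genes of other compartments and Nr0b2. Sox17 and the use of Prox1 at 1 library were singled out afterwards. No batch is labelled. KO numbers end at 12 and WT numbers start at 13, so any processing order cannot be told apart from genotype.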

Additional observations from a re-analysis of the deposited data

How the results depend on the processing

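No endothelial gene was called in any of the 31 alternative fits, and no ratio to Cdh5 in any of its 6 alternatives, prior count, scaling and denominator included. The relations with Cdh5 that passed stayed at 8 in the libraries labelled KO under 4 alternatives and at 7 in those labelled WT under 3. Of the relations of Cdh5 with genes of other compartments 7 passed. The count was 6 with library totals in place of TMM, with Epcam lost in KO libraries, and 5 without KO 11 and KO 12. In settings chosen after seeing the data it was 4 without WT 17 and 7 without KO 12, there with Adipoq lost and Pf4 gained in KO libraries. The cause was not tested, although leaving out libraries leaves fewer samples. The count over all genes was less stable: 50 in edgeR, 418 with DESeq2, 31 without KO 11 and KO 12, and between 9 (without WT 18) and 72 (without WT 14) when 1 library was left out. The cause was not tested. No paired analysis was possible because the groups share no replicate numbers. Depth limits Cldn5 and Erg most, with as few as 26 and 28 reads in a library.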
